A study of Homo sapiens with 8 samples.

Results

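The effect of a DNA minor groove binding ligand alone on RNA levels was examined in HEK cells, a line from human embryonic kidney, by setting ligand-treated against untreated cells. These are 4 of the 8 samples of the series, chosen by their titles: 1 ligand array and 1 untreated array on each of 2 chips, A and B. Ligand-treated cells received 50 µM of the ligand, untreated cells received nothing, and neither was irradiated. All cells were plated 24 h earlier and RNA was taken after a further 4 h of incubation. The other 4 samples, cells given 2 Gy of ionizing radiation and cells given 50 µM ligand 1 h before 2 Gy, entered the normalization of each chip, the level bins and the rule for named probes, and were set beside the compared arrays where said. The series title places the ligand as a modulator of the radiation response, and the comparison described here asks what it does on its own. The labels do not name the ligand, the vehicle or the HEK derivative, and they do not say whether the chips received RNA of the same culture.

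Ligands of this kind lie in the narrow groove of the double helix, mostly along runs of A and T bases, without cutting the strands. The fluorescent Hoechst dyes, which are bisbenzimidazoles, are the best known. Minor groove binders can displace proteins that read the same groove, interfere with topoisomerase I and, for some compounds, lower the damage that radiation does to DNA. The files and the reference tables used here do not pair the probe IDs with genes or sequences. Gene groups such as p53 targets, topoisomerases and histones could not be looked up, the identity of the cells could not be checked against kidney markers, and results are given per probe ID and per group of probes.

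Each chip holds 19700 probes and the chips share 0 probe IDs, so chip B does not repeat chip A. With 1 array per treatment and chip, no difference has a replicate error, and no p-value is given. A value for each probe was available on all 4 arrays of its chip for 19696 probes of chip A and 19699 of chip B, 39395 in all. The deposited intensities of chip A had a median of 168 on the ligand array, against 219 on the untreated array, a ratio of 0.769. On chip B the median was 211 on the ligand array, against 202 on the untreated array, a ratio of 1.05. The irradiated array of chip A was much dimmer, with a median of 34.5, and its deposited values were all of a single kind, described below. It enters chip A through the normalization, the level bins, the rule for named probes and where the 4 arrays are set side by side. Intensities were put on a log2 scale and quantile-normalized within each chip, which gives every array of a chip the same set of values and so removes any shift common to all probes. Differences below are ligand minus untreated on that scale, where 1 unit is 2-fold.

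Ligand and untreated arrays were close for most probes. On chip A 86.3% of the probes differed by less than 1.5-fold, and on chip B 95.1% did. The middle 50% of the differences spanned 0.46 log2 units on chip A, between -0.22 and 0.24, and 0.31 on chip B, between -0.14 and 0.17. Median differences were 0.012 and 0.025. Over probes the standard deviation was 0.44 (chip A) and 0.32 (chip B).

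At least 2-fold differences were found for 281 higher probes (1.43%) and 393 lower probes (2.00%) on chip A, 3.42% in all. Chip B had fewer, with 73 higher (0.371%) and 229 lower (1.16%), 1.53% in all. Lower probes thus made up 58.3% (chip A) and 75.8% (chip B). The farthest probes were mostly lower ones. At 4-fold, chip A had 16 higher and 39 lower probes and chip B had 3 and 32. At 8-fold, chip A had 1 higher and 11 lower probes and chip B had 0 and 5. At 1.5-fold both directions were nearly even on chip A, with 1302 higher and 1398 lower, but not on chip B, with 334 higher and 638 lower. The histogram of differences shows the long lower tail of both chips.

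**Figure D1:**
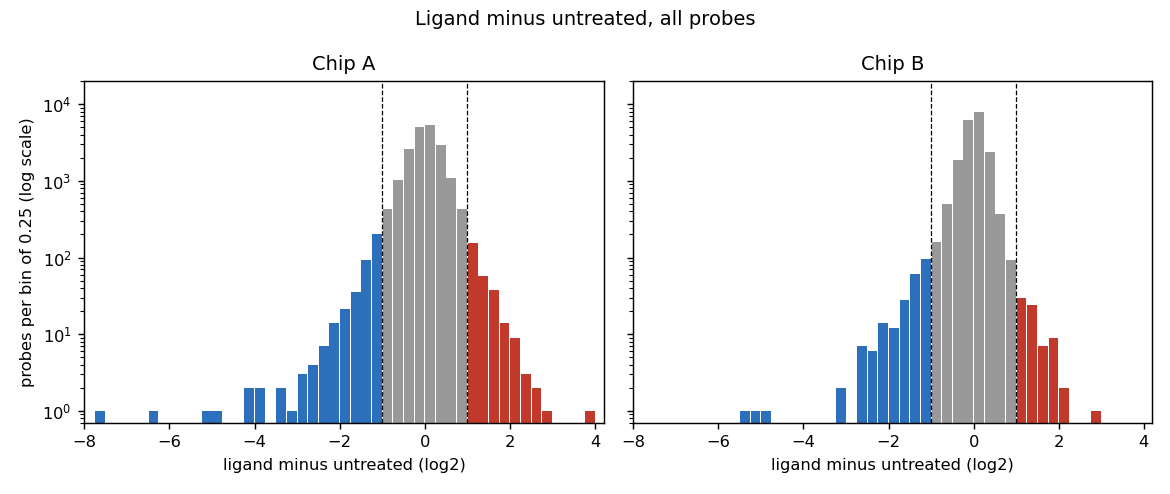
Number of probes (vertical axis, log scale) by ligand minus untreated difference (horizontal axis, log2 units, bins of 0.25) on chip A and chip B. Dashed lines mark 2-fold. Red bars are the 281 and 73 higher probes and blue bars the 393 and 229 lower probes. The lower tail reaches -7.57 on chip A and -5.28 on chip B, the upper tail 3.75 and 2.77.

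Any 2 arrays of a chip give such a scatter, so the other 5 pairs of arrays of each chip were set beside this one. On chip A the ligand and untreated arrays were the closest pair, with a standard deviation of 0.44 against 0.55 to 0.63 for the other 5, and 3.42% of the probes at least 2-fold apart against 6.55% (ligand against radiation), 6.75%, 7.29%, 7.87% (radiation against untreated) and 9.32% (ligand and radiation against radiation). Leaving out the 3 other pairs that hold the dim irradiated array, the remaining 2 had 6.75% (ligand and radiation against untreated) and 7.29% (ligand and radiation against ligand). On chip B the standard deviation was again the smallest of the 6, at 0.318 against 0.324 to 0.422. There the 1.53% of probes at least 2-fold apart lay within the range of the other 5 pairs, which were 1.17% for radiation against untreated, 1.64% for ligand and radiation against untreated, 1.93% for ligand against radiation, 2.48% for ligand and radiation against radiation and 2.57% for ligand and radiation against ligand. No pair of arrays repeats one treatment, so the scatter between repeats is not known. These pairs share arrays and are not independent.

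The size of the differences depended on the signal level. Probes were divided into 10 bins of equal size by their mean level on the ligand and untreated arrays. On chip A the standard deviation of the differences was 0.58 in the dimmest bin, 0.36 in the seventh and 0.51 in the brightest. The share of probes at least 2-fold apart was 8.12% in the dimmest bin, 1.52% in the seventh and 2.99% in the brightest. For chip B the standard deviation was 0.48, 0.27 and 0.34 in the same bins, and the share was 4.37%, 1.07% and 1.98%. The median difference stayed between 0.00044 and 0.027 over the bins of chip A and between 0.018 and 0.036 over those of chip B. Quantile normalization by itself evens out such medians. Under median scaling they were -0.041 in the dimmest bin and 0.093 in the brightest on chip A. On chip B they were 0.144 and -0.012. Under quantile normalization the dimmest bin was thus the most scattered of the 10, with a median near that of bright ones. The scatter was also large among the brightest 1% of probes, 197 per chip. Their standard deviation was 0.63 (chip A) and 0.64 (chip B), with 8.63% and 6.60% at least 2-fold apart. Their interquartile range was 0.73 and 0.35, against 0.64 and 0.49 in the dimmest bin.

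Higher and lower probes were placed differently along the level on chip B. The dimmest bin held 49 of the 73 higher probes, and 37 of the 229 lower ones. In the other 9 bins between 0 and 6 probes were higher and between 15 and 33 lower. To keep the level apart from the difference, the bins were also formed by the mean of the other 2 arrays of the chip, which do not enter the difference. The 73 higher probes again lay mostly in the dimmest bin, with 49, and the number of lower probes reached 55 in the brightest bin, 2.79% of it, and 37 in the next. Between 8 and 24 probes were lower in the 8 dimmer bins, with 24 in the dimmest. On chip A the dimmest bin formed in this way held 73 higher and 114 lower probes. More probes were lower than higher in each of the 10 bins of chip A formed in this way, but in 8 of the 10 formed by the compared arrays. Bins formed by 1 of the compared arrays gave a tilt of their own. On chip A the dimmest bin by the ligand array had 22 higher and 197 lower probes, and the dimmest bin by the untreated array had 146 higher and 14 lower.

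**Figure D2:**
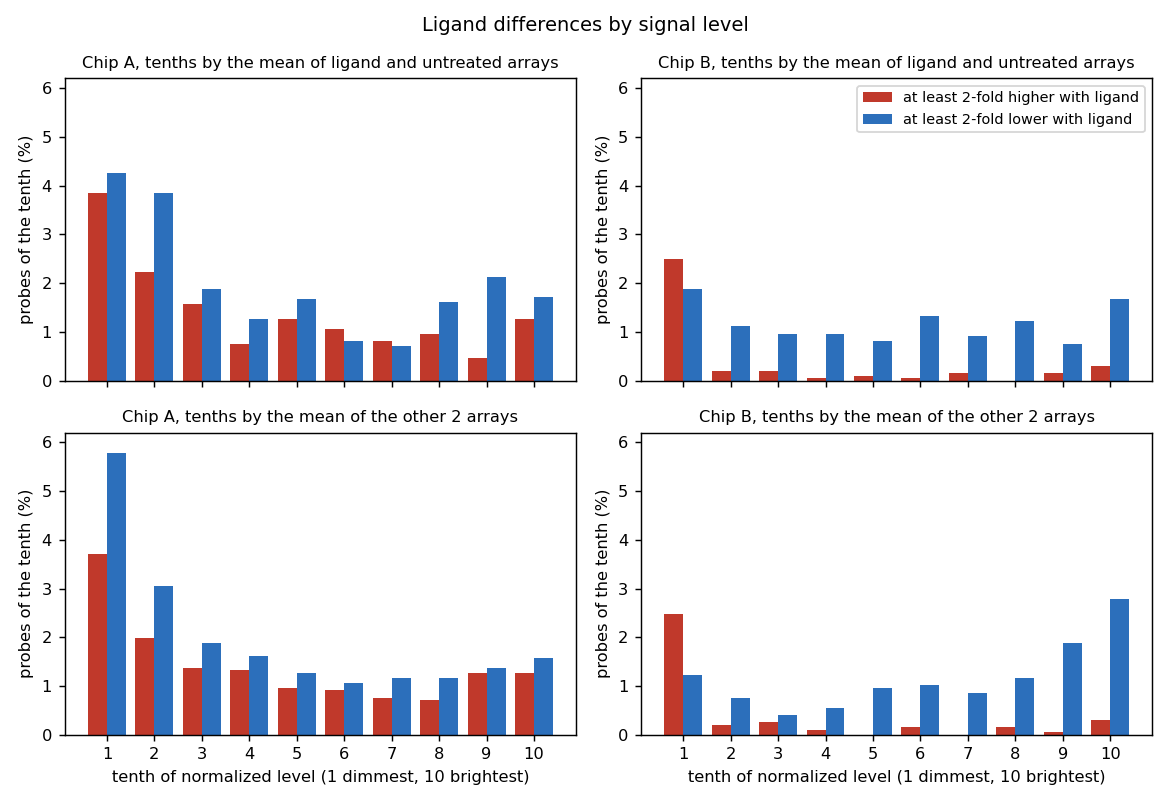
Share of probes at least 2-fold higher (red) or lower (blue) with the ligand, in percent of the bin, for 10 bins of normalized level with the dimmest on the left. Columns are chips A and B. The upper row forms bins by the mean of the compared arrays and the lower row by the mean of the other 2 arrays. On chip B higher probes lie mostly in the dimmest bin, at 2.49%, and lower probes reach 2.79% in the brightest bin of the lower row.

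The probes with the largest differences among the brighter ones were picked by a rule. It required a mean level over the 4 arrays above the chip's median, a spot on both arrays brighter than 25% of the probes, and a difference of at least 2-fold in the same direction under 3 normalizations. On chip A 78 higher and 110 lower probes met it, and on chip B 8 higher and 92 lower. A probe can meet the level requirement through a single high array, so the rule shapes which array stands apart among the named probes. Probes were ranked by the smallest of their 3 absolute differences, and the first 2 in each direction are described. Ranked so, obshum40K:B#17913, at -3.18 after quantile normalization, came after obshum40K:B#40739, at -2.70.

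The highest on chip A under the rule was obshum40K:A#02343. Its deposited intensity was 788 on the ligand array, against 135 on the untreated array. After normalization it was at 9.06 log2 units with the ligand, against 6.25 without, a difference of 2.82. The irradiated and combined arrays, at 6.75 and 6.61, lay near the untreated one, so the ligand array stood alone. Its untreated spot was brighter than 25.1% of the probes of that array, just inside the rule. On the irradiated array its spot was brighter than 43.3% of the probes and on the combined array than 38.8%. It thus met the level requirement only through its ligand value, so that the ligand array stood alone was partly set by the rule. The next was obshum40K:A#14805, with an intensity of 1040 on the ligand array, against 205 on the untreated array, and a difference of 2.65. Here the 4 arrays were spread out, at 9.47 with the ligand, 7.77 after radiation and 5.56 after both, against 6.82 in untreated cells.

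The lowest probe of chip A under the rule was obshum40K:A#09631, with an intensity of 146 on the ligand array, against 6330 on the untreated array. It was at 6.73 log2 units with the ligand, against 11.84 without, a difference of -5.12. The irradiated and combined arrays were at 7.25 and 6.98, so the untreated one was the outlying array. The same held for obshum40K:A#43707, at 180.5 on the ligand array, against 6438 on the untreated array, with a difference of -4.86. Its normalized level was 7.38 on the irradiated and 7.58 on the combined array, against 11.86 in untreated cells, so the ligand array lay with these.

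On chip B the highest probe under the rule was obshum40K:B#22445. It had an intensity of 463 on the ligand array, against 146 on the untreated array, a difference of 1.53. It was at 8.84 with the ligand and 8.32 after the combined treatment, against 7.22 after radiation and 7.31 in untreated cells. Both arrays with the ligand were thus above both without it. The next, obshum40K:B#22117, had 669 on the ligand array, against 225 on the untreated array, a difference of 1.46. It was at 9.34 with the ligand, 7.50 after radiation and 6.74 after the combined treatment, against 7.88 in untreated cells. The ligand array was the highest and the combined array the lowest.

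The lowest probe of chip B under the rule was obshum40K:B#13981. Its intensity was 667 on the ligand array, against 30397 on the untreated array, a difference of -5.15. It was at 9.34 with the ligand, 9.19 after radiation and 9.49 after both, against 14.49 in untreated cells, whose array stood alone. For obshum40K:B#40739 the intensity was 368 on the ligand array, against 2652 on the untreated array, a difference of -2.70. Here the ligand array was the lowest, at 8.51, the irradiated array was at 10.01, and the combined array, at 11.17, was near the untreated one, at 11.22.

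**Figure D3:**
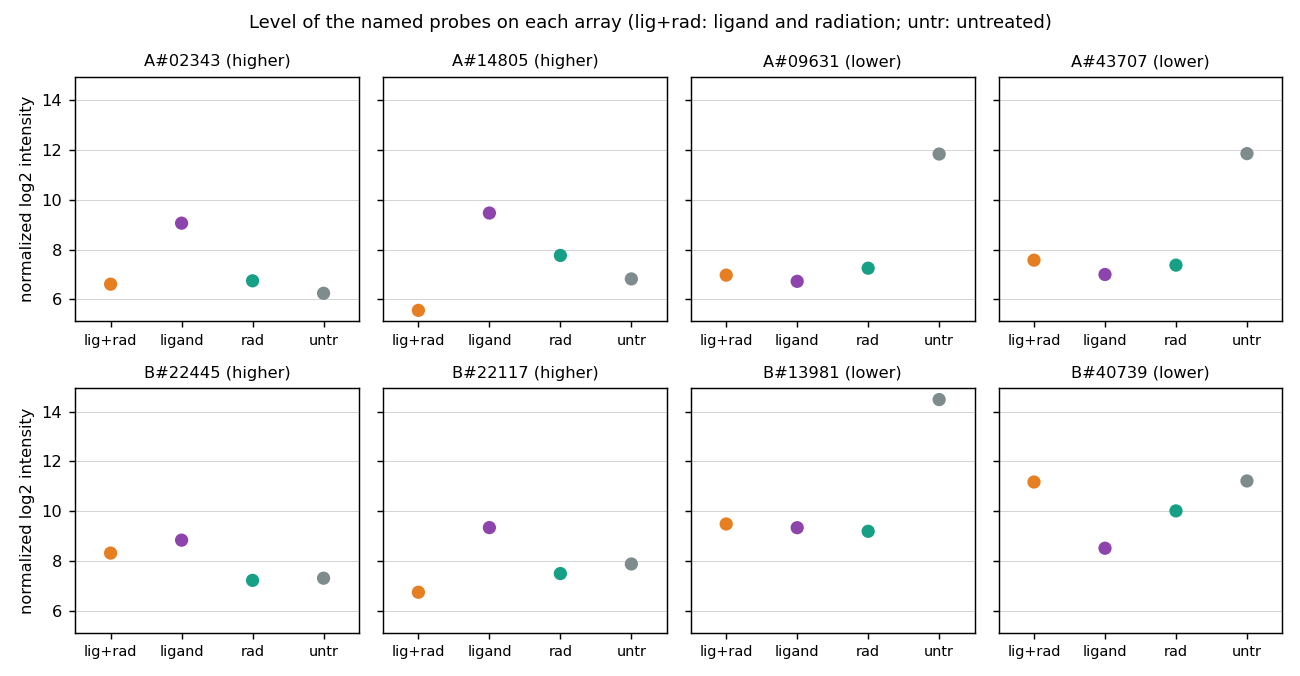
Normalized log2 intensity (vertical axis) of the 8 described probes on the 4 arrays of their chip, 1 point per array: ligand and radiation, ligand, radiation, untreated. Chip A is in the upper row and chip B in the lower. The untreated array stands alone for A#09631, A#43707 and B#13981, and the ligand array is at least 2-fold from all others for A#02343, A#14805, B#22117 and B#40739.

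Which array stood apart was counted over all probes at least 2-fold apart. For 144 of the 229 lower probes of chip B (62.9%) the ligand array was below every one of the other 3 by 2-fold or more, while for 22 (9.61%) the untreated array was that far above all others. Both other arrays were nearer the ligand one for 31 of the 229 and nearer the untreated one for 175. On chip A the 393 lower probes had the ligand array apart for 44 and the untreated array for 87, and both other arrays were nearer the ligand one for 148 and nearer the untreated one for 89. Of the 281 higher probes of chip A the ligand array was apart for 34 and the untreated array for 70. Of the 73 higher probes of chip B these numbers were 17 and 8.

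The 144 probes of chip B were chosen for being low on its ligand array. Their median intensity was 119 on the ligand array, against 325 on the untreated array, and it was 345 after radiation and 352 after the combined treatment. The ligand array lay a median of -1.29 log2 units from the nearest of the others, whereas the other 3 arrays spanned a median of 0.25, against 0.34 for all probes of the chip, which were dimmer, and the range was not compared at matched levels. The ligand value was a multiple of 0.5 for 17.4% of the 144, against 5.98% of all probes, and a multiple of the array's own step, described below, for 6.94%, against 2.02%. The part of these kinds of value in the low signal was not tested. No other array of chip B had as many probes to itself on the low side, the counts being 8 for the untreated, 16 for the irradiated and 13 for the combined array. On chip A 44 probes were low on the ligand array alone, against 70 on the untreated, 268 on the dim irradiated and 89 on the combined array. Arrays of chip A thus had similar or larger numbers of their own.

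**Figure D4:**
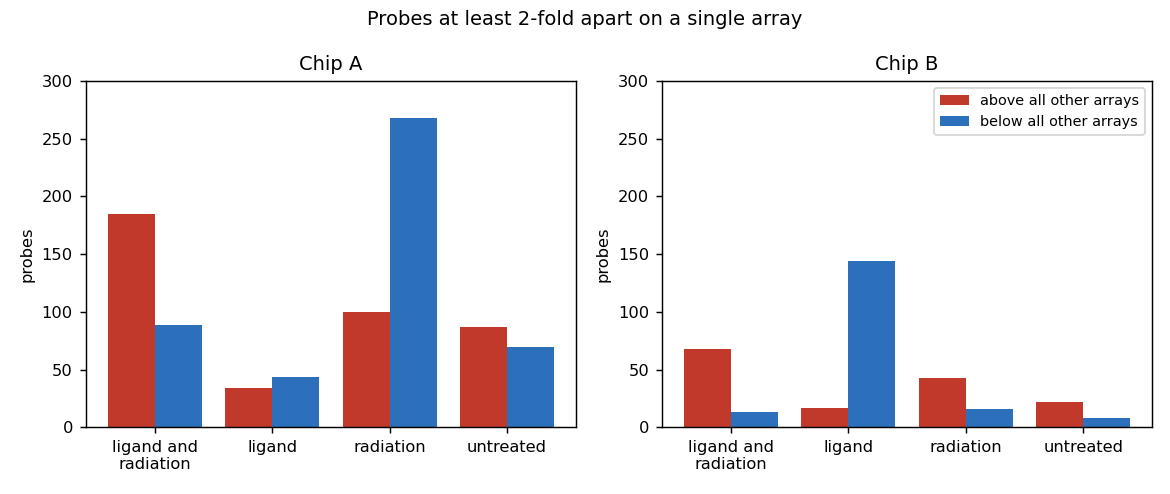
Number of probes (vertical axis) that lie at least 2-fold above (red) or below (blue) all other arrays of the chip, for each array. The ligand array of chip B has 144 probes below all others and 17 above. The longest bar of chip A is the 268 probes below all others on the dim irradiated array.

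Lower probes of chip B also lay next to each other in the order of probe IDs. The ID that follows was on the chip for 146 of the 229 lower probes, and 14 of these neighbours (9.59%) were lower too, against 1.16% of all probes. On chip A 5 of 286 neighbours of lower probes (1.75%) were lower, against 2.00% of all. Higher probes had a higher neighbour in 1 of 187 cases (chip A) and 0 of 51 (chip B). Over all neighbouring IDs the ligand difference of one probe and the next correlated at r = 0.015 on chip A (13633 pairs) and 0.075 on chip B (12705 pairs), as a description, since the pairs share both arrays. In the comparison of the combined with the irradiated array it was 0.026 on chip A and 0.19 on chip B. Whether neighbouring IDs share a gene, a spotting plate or a place on the slide is not stated.

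Deposited intensities were of different kinds, and the ligand difference went with the kind. On the ligand array of chip A, 1308 values (6.64%) were multiples of 0.5, and another 890 (4.52%) were whole multiples of a single step of 1.51. On its untreated array 4790 values (24.3%) were multiples of 0.5, and 2081 (10.6%) were multiples of a step of 1.28. On the ligand array of chip B 1178 (5.98%) and 397 (2.02%) were multiples of 0.5 and of a step of 1.52, and on its untreated array 7657 (38.9%) were multiples of 0.5 and no step was found. The remaining values had no common unit. On the irradiated array of chip A 100% of the values were multiples of 0.5, against 28.3% on its combined array. On chip B these shares were 16.2% (irradiated) and 5.35% (combined). The irradiated array of chip A entered the normalization, the level bins, the rule for named probes and the counts of which array stood apart. What part its kind of value has in these was not tested. The files do not say what sets the kinds apart.

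Where the ligand value of chip A was a multiple of its step, the median ligand difference was 0.33, against 0.0066 for values of no common unit. These 890 probes held 90 of the 281 higher probes of the chip (32.0%) and 16 of the 393 lower ones. Where the untreated value of chip A was a multiple of the step, the median difference was -0.35, against 0.020, and these 2081 probes held 200 of the 393 lower ones (50.9%) and 8 of the 281 higher ones. On chip B the 397 probes whose ligand value was a multiple of the step had a median difference of 0.34, against 0.025, and held 43 of the 73 higher probes (58.9%) and 14 of the 229 lower ones. These 14 were 3.53% of the step values, against 1.16% lower among all probes, so both directions were more frequent there. By the medians, the array with the step values was the higher one in each case. Step values were also dim, with a median of 159 on the untreated array of chip A. The sign of the shift was therefore read in bins by the other 2 arrays that held at least 20 such probes. For chip A it was the same in 7 of 7 bins for the ligand array and in 8 of 8 for the untreated array. For the ligand array of chip B it was the same in 4 of 4. Levels on the compared arrays were not matched within these bins, and the part of the level in the shift was not tested. What part the kinds of value have in the ligand differences was not tested.

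Without the probes that had a step value on either compared array, 186 were higher and 187 lower on chip A, an even split, and 30 were higher and 215 lower on chip B. The excess of lower probes on chip A was thus not present at 2-fold among these 16969 probes. At 4-fold, 13 of them were higher and 26 lower. The excess at 2-fold was present when all probes were kept and the differences were centred within each combination of kinds, with 214 higher and 278 lower (56.5% lower). On chip B the 30 higher and 215 lower were 0.155% and 1.11% of the 19302 probes left, so mainly higher probes were fewer. Centring left 50 higher and 239 lower there. Of the 8 described probes, none had a step value on the compared arrays. The farthest probe of chip A in each direction, at 3.75 and -7.57, did. Values that were multiples of 0.5 went with smaller shifts. For chip B the median difference was -0.087 where the untreated value was such a multiple, against 0.088 where it was not, a gap present with the same sign in all 10 level bins. On chip A that gap had the opposite sign, with medians of 0.10 and, for values of no common unit, 0.020.

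**Figure D5:**
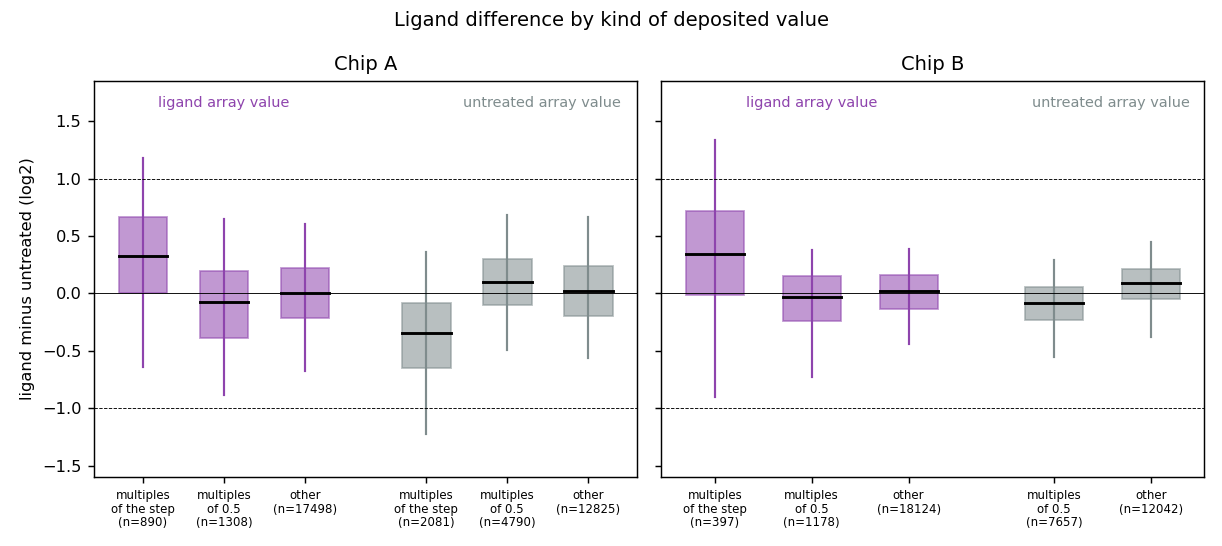
Ligand minus untreated difference (vertical axis, log2 units) by kind of deposited value on the ligand array (purple) and on the untreated array (grey), for chips A and B. Boxes span the 25th to 75th percentile with the median in black, lines span the 5th to 95th percentile, and n is the number of probes. Multiples of the step have medians of 0.33 and 0.34 where they are ligand values and of -0.35 where they are untreated values.

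In irradiated cells the ligand can be compared on separate arrays, the combined against the irradiated one. The 281 higher probes of chip A had a median difference of -0.11 there and the 393 lower ones -0.0021, against -0.042 for all probes of the chip. On chip B the 73 higher probes had a median of 0.11 and the 229 lower ones of -0.076, against -0.036 for all probes. Of the 229 lower probes of chip B, 65.5% were below 0 in irradiated cells, against 54.8% of all probes. Past 2-fold, 6 of them (2.62%) were higher and 9 (3.93%) lower, against 1.71% and 0.772% of all probes. Of the 73 higher probes of chip B, 11 (15.1%) were higher and 11 lower. Of the 281 higher probes of chip A, 20 (7.12%) were higher and 28 (9.96%) lower. Of its 393 lower probes, 45 (11.5%) were higher and 31 (7.89%) lower, against 5.45% and 3.87% of all probes of chip A. In the combined treatment the ligand was given 1 h before radiation, so exposure times may differ.

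The value table that the authors deposited beside the intensities gives another picture of the same arrays. Its values are scores, each a straight-line function of log2 intensity in which 1 unit is 1.59-fold on the ligand arrays and 1.57-fold on the untreated ones. For the ligand and for untreated cells, both chips were centred on 1 intensity, about 193 with the ligand and 209 without, instead of each array on its own. On this scale 76.0% of the probes of chip A were lower with the ligand and 79.3% of those of chip B were higher, with median differences of -0.38 and 0.31 score units. A margin of 1 score unit gave 427 higher and 3035 lower probes for chip A, but 945 higher and 328 lower probes for chip B. This margin is smaller than 2-fold. The nearest one used after normalization, 1.5-fold, gave 1302 higher and 1398 lower on chip A and 334 and 638 on chip B. The direction of the excess on chip B was thus the reverse of that after normalization within the chip, and the median shift of all probes is relative to this centring.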

How the data were processed

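RNA of 8 samples was hybridised to 1-colour arrays. Per the labels' protocols, 5 µg of total RNA was amplified from an oligo(dT) primer with T7 RNA polymerase and labelled with Cy3. The authors deposited an intensity for each probe, linear and without background or flag columns, and separately a score. How the slides were scanned and the spots quantified is not stated in the labels or headers. Between 0 and 3 probes per array read "not detected" and were left out on all arrays of the chip. Intensities were log2-transformed and quantile-normalized over the 4 arrays of a chip with limma 3.58.1 (R 4.3.3). A probe counted as higher or lower at an absolute difference of 1 log2 unit, which is a size limit with no test. A value was taken as a multiple of 0.5 when its ratio to 0.5 lay within 1e-06 of a whole number, and as a multiple of an array's step within a relative tolerance of 1e-07. The step was read from values that recur exactly.

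The members, the rules and the alternatives were chosen with earlier results of these data known, and the kinds of deposited value were examined after seeing the differences. The rule for named probes allowed 10 in each direction and chip. As probes are not paired with genes, 2 are printed, and the gene lists and cell type markers were not evaluated. Normalization and step finding were tested on simulated arrays. Those for normalization had equal scatter at all levels and as many probes raised as lowered, unlike the data. No replicate exists, so the precision is limited by the number of arrays. Alternatives were median scaling, cyclic loess, quantile normalization of the compared arrays alone, normexp with an offset of 50, a running median of 51 probes removed, filters on dim probes, the deposited scores and, added after seeing the data, leaving out or centring the kinds of value.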

Additional observations from a re-analysis of the deposited data

Results flagged for a closer look

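For 2 of the described probes the ligand difference went opposite ways, by at least 2-fold each, in irradiated cells (combined minus irradiated array) and in unirradiated cells (ligand minus untreated array). For obshum40K:A#14805 it was -2.21 log2 units in irradiated cells and 2.65 in unirradiated cells. Its spot on the combined array was brighter than 7.33% of the probes there. For obshum40K:B#40739 it was 1.16 in irradiated cells and -2.70 in unirradiated cells. Each difference rests on 1 array per treatment, and the difference between the 2 comparisons was not tested.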

How the results depend on the processing

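With 1 array per treatment and chip, no setting can show how far a repeat would differ. No paired analysis was possible because each treatment has 1 array per chip and the chips share 0 probe IDs. The 8 described probes kept their sign under the 6 alternatives run on them. Their rule already required this for median scaling and cyclic loess, so those alternatives could not have turned it. Of 100 recomputed counts, spreads and shares, 77 stayed within the margin set for them, a ratio of 1.5. Not all of the probes themselves stayed at least 2-fold apart under all 6 normalization settings, the main one included and the scores left out. On chip A 104 of the 281 higher and 186 of the 393 lower probes did. On chip B 19 of the 73 higher and 168 of the 229 lower probes did. On chip A, at least 2-fold higher and lower counts were 111 and 194 with normexp, 99 and 134 among the brighter 50% of probes, and 47 and 79 among the brightest 25%. On chip B, 40 were higher with normexp, and the filters left 13 higher and 136 lower, then 8 higher and 86 lower. These filters test fewer probes. Normexp and the 2 filters raised the lower share on chip B to 86.9%, 91.3% and 91.5%. At 1 score unit, a smaller margin than 2-fold, the deposited scores gave 427 higher and 3035 lower on chip A (87.7% lower). On chip B they gave 945 higher (25.8% lower). Their standard deviations were 0.713 and 0.513 and interquartile ranges 0.75 and 0.5 score units on chips A and B. As 1 score unit is 0.67 log2 units on the ligand arrays and 0.65 on the untreated ones, these spreads are not on the log2 scale. Alternatives on the kinds of value were chosen after seeing the data. Without step values 186 were higher and 187 lower on chip A (50.1% lower), and 30 were higher on chip B (87.8% lower). Centring within kinds of value instead gave 214 higher and 278 lower on chip A (56.5% lower), and 50 and 239 on chip B (82.7% lower). Without multiples of 0.5, 127 were lower on chip B. In bins by the other 2 arrays, 3.10% of the brightest bin of chip B was at least 2-fold apart. Beyond the unit of the scores and the number of probes left, the cause of these shifts was not tested.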
